A study of Mus musculus with 10 samples.

Results

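Lipoproteins carry triglyceride and cholesterol in the blood, and the liver builds, remodels and takes up these particles. The 10 genes described here encode proteins of those steps: Mttp for assembly, Abca1 for the formation of HDL (high density lipoprotein), Lcat, Pltp, Lipc and Lpl for remodelling in plasma, and Lrp1, Vldlr, Scarb1 and Cd36 for uptake. They were chosen by gene name from a table of 19414 genes measured in liver RNA, and all 10 were found and passed the filter of a mean of at least 1 CPM (reads of a gene per 1000000 reads assigned to genes).

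The RNA came from 10 female mice of the HET3 stock, which is bred by crossing several inbred strains so that each animal has its own genetic background. One group of 5 mice ate a standard diet (SD) and another group of 5 ate the Longevity diet (LD), described in the title of the series as supplemented with methionine. Feeding lasted 5 months and the stated age is 25 months, although the labels leave unsaid whether that was reached before or after the feeding. No transgene or deletion is named for either group, and the composition of the diets and any pairing by cage are not given in the sources used here. Estimated depth was 24.7 to 39.1 M reads (M, 1000000 reads) per library on LD and 36.0 to 45.7 M on SD (exact permutation p = 0.0159, two-sided, 5 against 5 mice). The 10 most abundant genes of a library held a mean of 23.6% of its CPM on SD and 27.5% on LD (exact permutation p = 0.0238, two-sided, 5 against 5 mice), and the part of either difference in the values below was not tested. At these depths each value of the 10 genes rested on about 165 reads or more.

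Hepatocytes load triglyceride onto apolipoprotein B with the transfer protein encoded by Mttp and secrete the particle as VLDL (very low density lipoprotein). Lipases then remove triglyceride from circulating particles, and remnants return to the liver through endocytic receptors such as LRP1. HDL forms when ABCA1 exports cholesterol and phospholipid to apolipoprotein A-I, is matured by LCAT and PLTP, and delivers cholesteryl ester to hepatocytes through SR-BI, the product of Scarb1.

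The comparison asks whether these genes differed between the diets. None of the 10 passed the threshold of an adjusted p of 0.05 in limma, a linear model fitted over all genes, while 1.89% of the 13157 genes tested did, 0.661% higher and 1.23% lower on LD. The values of the diets overlapped for all 10 genes, whereas they did not overlap for 5.50% of the genes tested. At an unadjusted p under 0.05 there was 1 gene of the 10, Lrp1, beside 17.5% of all genes tested. Mean differences on the log2 scale lay above 0 for 6 genes and below 0 for 4, with a median of 0.19 beside -0.11 over all genes tested. Of the 13157 genes tested, 5205 lay above 0 and 7952 below 0. The intervals of Lpl and Vldlr hold differences of more than 2-fold in either direction, and a missed threshold does not show that a gene was alike on both diets. What the data do describe closely is the level of each gene, its spread between mice, and which mice were high or low together.

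**Figure D1:**
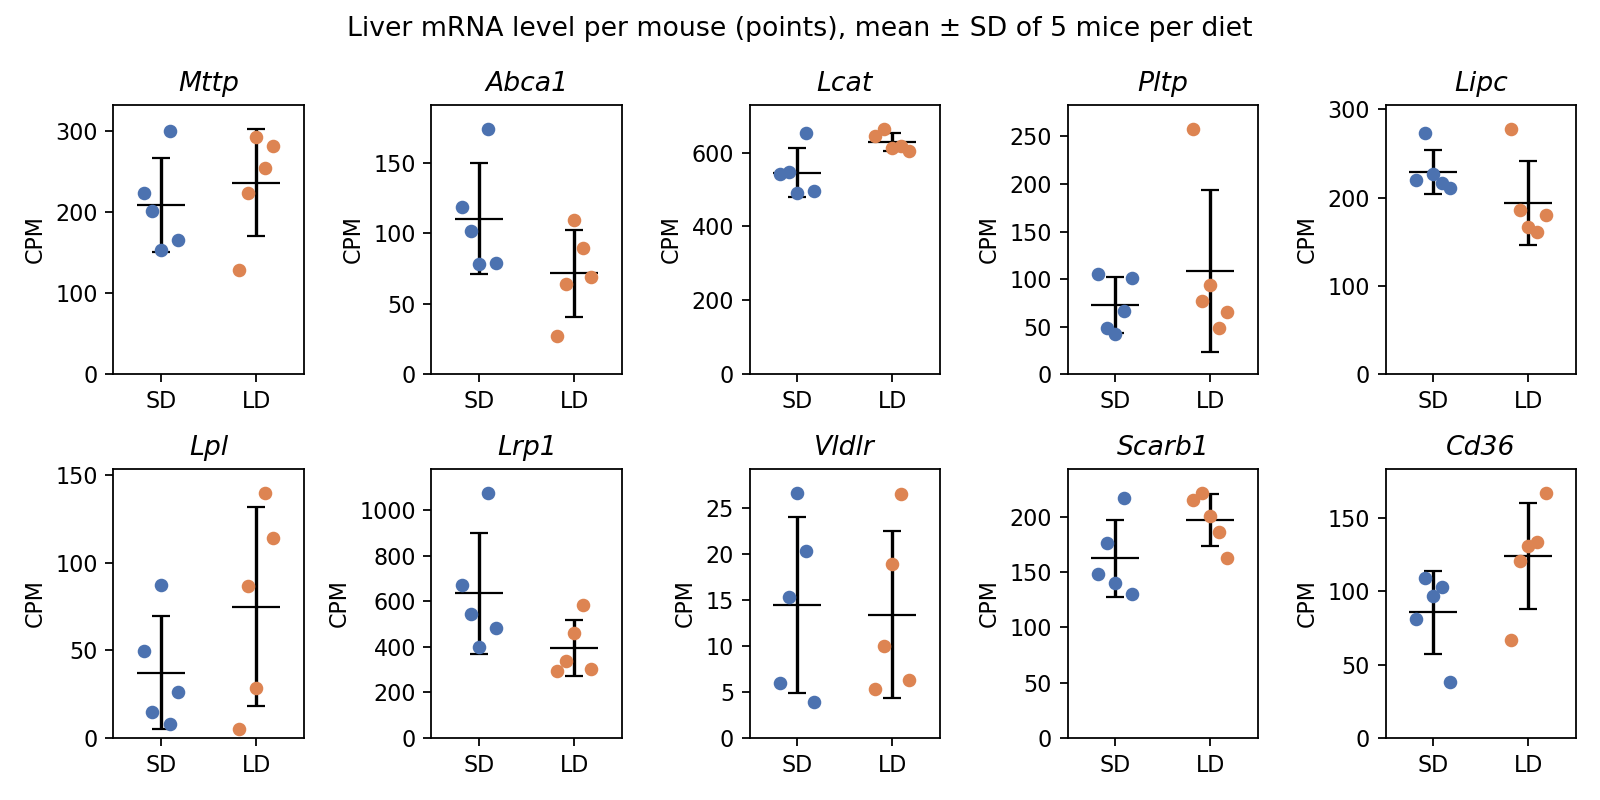
Liver mRNA level of the 10 genes in CPM for each mouse (points), with the mean and SD of 5 mice per diet (black lines and bars), each vertical axis starting at 0. The diets overlap in every panel; Lcat varies little between mice, while Lpl runs from 5.09 to 139.6 CPM within the Longevity diet.

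Sequence was available from RefSeq (build GRCm38.p6) for the 300 bases around the transcription start, 250 before and 50 after it, of 8 of the 10 genes; Lpl and Scarb1 had no entry. The 8 genes had 10 such windows, since Lipc and Vldlr have 2 each. Both strands were searched for the sterol response element TCACNCCAC, the E-box CACGTG, the nuclear receptor half-site AGGTCA, and direct repeats of that half-site spaced by 1 or 4 bases with at most 2 mismatches in all. The 3 windows that held an E-box or a spaced repeat are shown, with that match in capitals, because spaced repeats of this half-site are bound by nuclear receptors of lipid metabolism such as the PPAR and LXR families and E-boxes by basic helix-loop-helix factors; a match is a description and no site was tested.
Abca1 (chr4:53159846-53160145, minus strand): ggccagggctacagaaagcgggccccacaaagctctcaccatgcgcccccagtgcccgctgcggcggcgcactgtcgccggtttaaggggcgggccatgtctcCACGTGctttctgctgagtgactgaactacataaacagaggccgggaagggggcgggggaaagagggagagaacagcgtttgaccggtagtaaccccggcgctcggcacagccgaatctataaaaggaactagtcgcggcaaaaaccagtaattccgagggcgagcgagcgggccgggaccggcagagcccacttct
Cd36 (chr5:17835847-17836146, minus strand): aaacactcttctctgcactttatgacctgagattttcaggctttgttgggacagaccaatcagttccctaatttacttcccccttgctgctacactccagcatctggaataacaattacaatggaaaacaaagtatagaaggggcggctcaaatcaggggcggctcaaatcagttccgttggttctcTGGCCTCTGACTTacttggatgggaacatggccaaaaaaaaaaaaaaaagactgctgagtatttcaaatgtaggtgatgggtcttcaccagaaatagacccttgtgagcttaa
Lipc, second window (chr9:70934759-70935058, minus strand): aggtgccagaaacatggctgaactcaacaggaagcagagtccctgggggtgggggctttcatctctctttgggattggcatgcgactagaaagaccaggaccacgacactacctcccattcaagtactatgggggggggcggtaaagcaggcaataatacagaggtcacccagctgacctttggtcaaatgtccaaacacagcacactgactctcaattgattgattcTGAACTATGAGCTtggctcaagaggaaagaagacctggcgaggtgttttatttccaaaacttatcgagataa

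The capitals mark an E-box in Abca1, beginning 147 bases before the start site. In Cd36 and Lipc they mark a direct repeat spaced by 1 base, on the opposite strand and with 2 mismatches. The half-site also occurred outside the capitals, once in the Cd36 window and at 2 positions in the Lipc window. Those of Lipc lay close together on opposite strands, at bases 163 to 168 and 175 to 180. An E-box occurred in 7.15% of the 32851 promoter windows of the same length, a direct repeat spaced by 1 base in 3.86%, one spaced by 4 bases in 3.02%, a half-site in 16.3% and the sterol response element in 1.24%. No window of the 8 genes held the sterol response element, or the repeat spaced by 4 bases with at most 2 mismatches. Repeats with more mismatches were not searched for, so a window without a match may still hold a receptor site.

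All CPM values for single mice below are listed in the order SD_403, SD_500, SD_501, SD_502 and SD_646 for the standard diet and LD_405, LD_406, LD_442, LD_513 and LD_515 for the Longevity diet. Means are given with the SD of 5 mice, differences are LD minus SD on the scale of log2(CPM + 0.1), each adjusted p comes from limma with Benjamini-Hochberg adjustment over 13157 genes, and gene positions are on mm39.

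Mttp (ENSMUSG00000028158.15, chromosome 3 from 137795615 to 137850729, minus strand) encodes the large subunit of the microsomal triglyceride transfer protein, which lipidates apolipoprotein B in the endoplasmic reticulum. Its level was 224, 202, 153, 301 and 165 CPM in the standard diet mice and 128, 224, 293, 255 and 282 CPM in the Longevity diet mice. The lowest value of all was that of LD_405, and SD_502 was the highest, with 4 of the 5 Longevity diet mice between 224 and 293 CPM. The means were 209 ± 58.6 CPM on the standard diet and 236 ± 66.3 CPM on the Longevity diet. This was a log2 difference of 0.16 (SE 0.25, 95% interval -0.38 to 0.71, adjusted p = 0.769), smaller than the spread between mice. Mttp had a log2 difference of 0.06 (without SD_501) to 0.37 (without LD_405) when single mice were left out.

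Abca1 (ENSMUSG00000015243.5, chromosome 4 from 53030787 to 53159895, minus strand), the transporter that starts HDL formation, had a lower mean on the Longevity diet without passing the test. It stood at 118, 102, 77.9, 174 and 79.0 CPM on the standard diet and at 26.7, 63.8, 109, 89.7 and 69.2 CPM on the Longevity diet. Of the Longevity diet mice 3 lay below every standard diet mouse, while LD_442 and LD_513 lay inside the standard diet range. The means were 110.2 ± 39.4 CPM on the standard diet and 71.7 ± 30.9 CPM on the Longevity diet. The log2 difference of Abca1 was -0.70 (SE 0.34, 95% interval -1.44 to 0.05, adjusted p = 0.314), and without LD_405, by far the lowest mouse, it was -0.38 (adjusted p = 0.445). Abca1 had a log2 difference of -0.88 (without LD_442) to -0.38 (without LD_405) when single mice were left out.

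Lcat (ENSMUSG00000035237.8, chromosome 8 from 106666183 to 106670014, minus strand) encodes the plasma enzyme that esterifies cholesterol on HDL. It was the steadiest of the 10 genes, at 543, 549, 491, 654 and 495 CPM on the standard diet and 645, 664, 611, 618 and 606 CPM on the Longevity diet. All 5 Longevity diet mice lay above 4 of the 5 standard diet mice, and the overlap came from SD_502 alone. Means were 546 ± 65.7 CPM on the standard diet and 629 ± 24.8 CPM on the Longevity diet. The log2 difference of Lcat was 0.21 (SE 0.14, 95% interval -0.10 to 0.52, adjusted p = 0.467), so that an increase above 1.43-fold falls outside the interval. Leaving out SD_502 removed the overlap by construction (log2 difference 0.28, adjusted p = 0.330). Lcat had a log2 difference of 0.17 (without SD_501) to 0.28 (without SD_502) when single mice were left out.

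Pltp (ENSMUSG00000017754.14, chromosome 2 from 164681438 to 164699631, minus strand), which moves phospholipid from triglyceride-rich particles to HDL, was set apart by 1 mouse. The standard diet mice had 105, 48.0, 42.3, 66.5 and 101 CPM and the Longevity diet mice 258, 76.9, 94.1, 48.1 and 65.7 CPM. LD_405 was 258 CPM, while the other 4 mice of its diet lay inside the range of the standard diet. The means of 72.6 ± 29.3 CPM on the standard diet and 109 ± 85.1 CPM on the Longevity diet gave a log2 difference of 0.41 (SE 0.40, 95% interval -0.46 to 1.28, adjusted p = 0.635). It became 0.03 (adjusted p = 0.972) without LD_405. Pltp had a log2 difference of 0.03 (without LD_405) to 0.63 (without LD_513) when single mice were left out.

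Lipc (ENSMUSG00000032207.11, chromosome 9 from 70705410 to 70859508, minus strand) encodes hepatic lipase, which is made by hepatocytes and acts on HDL and remnant particles at the sinusoid surface. Its values were 219.7, 273, 226, 217 and 211 CPM on the standard diet and 278, 186, 167, 161 and 180.0 CPM on the Longevity diet. Of the Longevity diet mice 4 lay below every standard diet mouse, and the fifth, LD_405, lay above all of them. Mean levels were 229 ± 24.9 CPM on the standard diet and 194 ± 47.7 CPM on the Longevity diet, a log2 difference of -0.26 (SE 0.18, 95% interval -0.65 to 0.12, adjusted p = 0.469). Leaving out LD_405 removed the overlap by construction, since the other 4 lay below the standard diet range. The difference was then -0.40, still short of the threshold (adjusted p = 0.153). Leaving out any single mouse also raised the number of genes without overlap among all genes tested. With weights that give less influence to more variable libraries the adjusted p of Lipc was 0.0623, the lowest of any of the 10 genes under any setting tried. Lipc had a log2 difference of -0.40 (without LD_405) to -0.20 (without SD_500) when single mice were left out.

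Lpl (ENSMUSG00000015568.17, chromosome 8 from 69333143 to 69360100, plus strand), lipoprotein lipase, is the main triglyceride lipase of muscle and fat capillaries and is low in the adult liver. It was the most variable of the 10 genes, at 49.6, 15.1, 87.4, 7.91 and 26.4 CPM on the standard diet and 5.09, 86.6, 28.5, 139.6 and 114 CPM on the Longevity diet. Both diets held low mice (LD_405, SD_502, SD_500) and high mice (LD_513, LD_515, SD_501, LD_406), an 11.0-fold range on the standard diet and a 27.4-fold range on the Longevity diet. The means, 37.3 ± 32.2 CPM on the standard diet and 74.8 ± 56.8 CPM on the Longevity diet, differed by 2.01-fold. The log2 difference of Lpl was 0.77 (SE 0.95, 95% interval -1.32 to 2.87, adjusted p = 0.706), an interval from 0.4-fold to 7.31-fold. It was 1.56 without LD_405 (adjusted p = 0.316) and 0.03 without LD_406 and LD_515 (adjusted p = 0.993), the latter a pair left out after the data were seen. Lpl had a log2 difference of 0.34 (without SD_502) to 1.56 (without LD_405) when single mice were left out.

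Lrp1 (ENSMUSG00000040249.16, chromosome 10 from 127374030 to 127457017, minus strand) encodes a large endocytic receptor that clears remnants in hepatocytes and is also made by macrophages and fibroblasts. Levels were 672, 542, 399, 1074 and 482 CPM on the standard diet and 293, 336, 461, 582 and 301 CPM on the Longevity diet. SD_502 stood far above the other mice, and LD_405, LD_406 and LD_515 lay below the whole standard diet range. Means were 634 ± 265 CPM on the standard diet and 395 ± 125 CPM on the Longevity diet. With a log2 difference of -0.65 (SE 0.27, 95% interval -1.24 to -0.06, adjusted p = 0.238) and an unadjusted p of 0.0333, Lrp1 had the smallest p of the 10 genes. The interval is not adjusted for the number of genes tested, and Lrp1 did not pass after adjustment. Without SD_502 the difference was -0.44 (adjusted p = 0.376). Lrp1 had a log2 difference of -0.80 (without LD_513) to -0.44 (without SD_502) when single mice were left out.

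Vldlr (ENSMUSG00000024924.15, chromosome 19 from 27193884 to 27231631, plus strand) encodes the VLDL receptor, a relative of LRP1 found mainly in heart, muscle and fat and scarce in liver. It was measured at 5.95, 15.3, 26.6, 20.4 and 3.92 CPM on the standard diet and 5.33, 9.99, 18.9, 26.5 and 6.35 CPM on the Longevity diet. Low and high mice occurred on both diets, SD_501 and LD_513 being almost equal at the top and SD_646, LD_405 and SD_403 lowest. The means were nearly the same, 14.4 ± 9.58 CPM on the standard diet and 13.4 ± 9.06 CPM on the Longevity diet. The log2 difference of Vldlr was -0.04 (SE 0.55, 95% interval -1.24 to 1.16, adjusted p = 0.979), and its sign turned under several settings, including the 3 alternative scalings (0.07 to 0.12). Differences between 0.425-fold and 2.23-fold lie inside the interval.

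Scarb1 (ENSMUSG00000037936.16, chromosome 5 from 125354151 to 125418158, minus strand) encodes SR-BI, the class B scavenger receptor that takes cholesteryl ester from HDL. Its level was 148, 176, 140.3, 216 and 130.4 CPM on the standard diet and 215, 221, 201, 186 and 163 CPM on the Longevity diet. SD_502 stood among the upper Longevity diet mice, and the other standard diet mice lay at or below 176 CPM. The means were 162 ± 34.7 CPM on the standard diet and 197 ± 23.5 CPM on the Longevity diet. Scarb1 had a log2 difference of 0.30 (SE 0.18, 95% interval -0.09 to 0.68, adjusted p = 0.410). Scarb1 had a log2 difference of 0.22 (without SD_646) to 0.41 (without SD_502) when single mice were left out.

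Cd36 (ENSMUSG00000002944.16, chromosome 5 from 17986688 to 18093799, minus strand), the other class B scavenger receptor of the group, takes up long-chain fatty acids and oxidised lipoproteins. It stood at 80.8, 109, 97.1, 103 and 38.5 CPM on the standard diet and at 67.0, 121, 131, 134 and 167 CPM on the Longevity diet. Of the Longevity diet mice 4 lay above every standard diet mouse, and LD_405 lay below all standard diet mice but SD_646. The means were 85.7 ± 28.4 CPM on the standard diet and 124 ± 36.2 CPM on the Longevity diet. The log2 difference of Cd36 was 0.56 (SE 0.31, 95% interval -0.10 to 1.22, adjusted p = 0.367). Leaving out LD_405 removed the overlap by construction, and the difference was then 0.77 (adjusted p = 0.150). Without SD_646 the difference was 0.29 (adjusted p = 0.572).

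**Figure D2:**
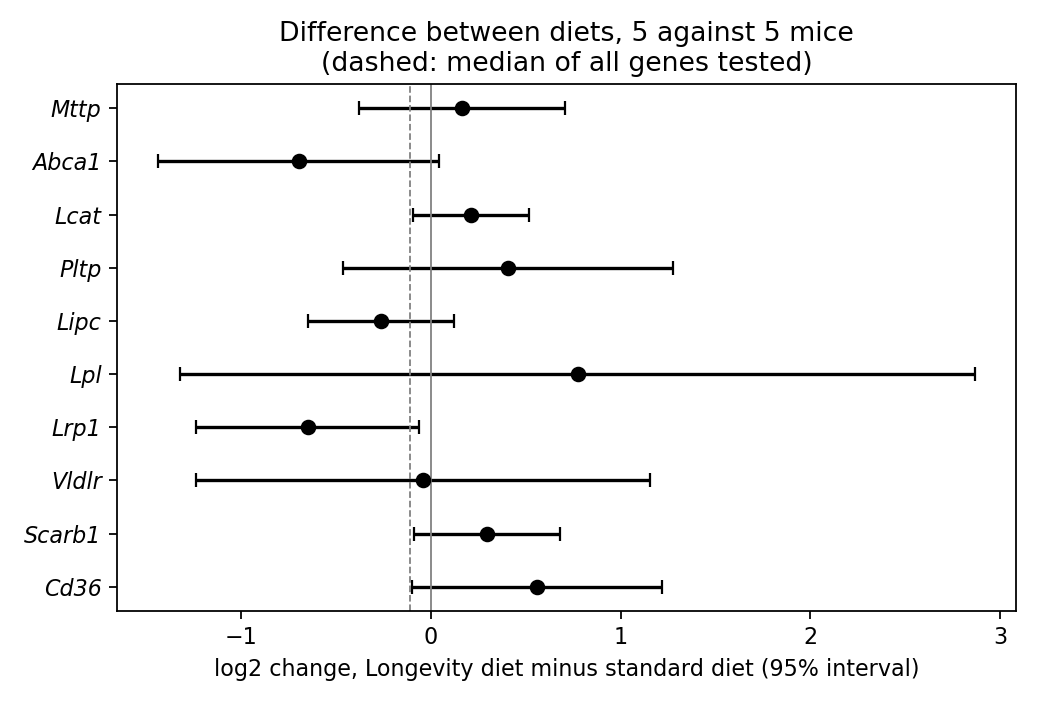
Difference between the diets for each gene as LD minus SD on the log2(CPM + 0.1) scale (points) with its 95% interval before adjustment (bars); the dashed line is the median over all genes tested, -0.11. The intervals of 9 of the 10 genes include 0, the exception being Lrp1, and that of Lpl is the widest.

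Per kilobase of transcript the 10 genes covered a wide range of levels. Lcat was highest with a mean of 438 CPM per kb over the 10 mice, followed by Lipc (110.3), Scarb1 (71.3), Mttp (56.2), Pltp (40.7), Lrp1 (34.5), Cd36 (30.8), Lpl (13.6), Abca1 (8.86) and Vldlr (1.75 CPM per kb). Only for the first pair, Lcat and Lipc, were the ranges over the 10 mice separate. Among the other neighbours in this order the ranges overlapped, although Lipc lay above Scarb1, Cd36 above Lpl and Abca1 above Vldlr in 10 of 10 mice. Pltp lay above Lrp1 in 6 mice, Lrp1 above Cd36 in 4, and Lpl above Abca1 in 5, so that those neighbours were not ordered beyond their spread. Without the division by length Lrp1, whose transcript has 14888 bases, would stand second at a mean of 514 CPM.

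**Figure D3:**
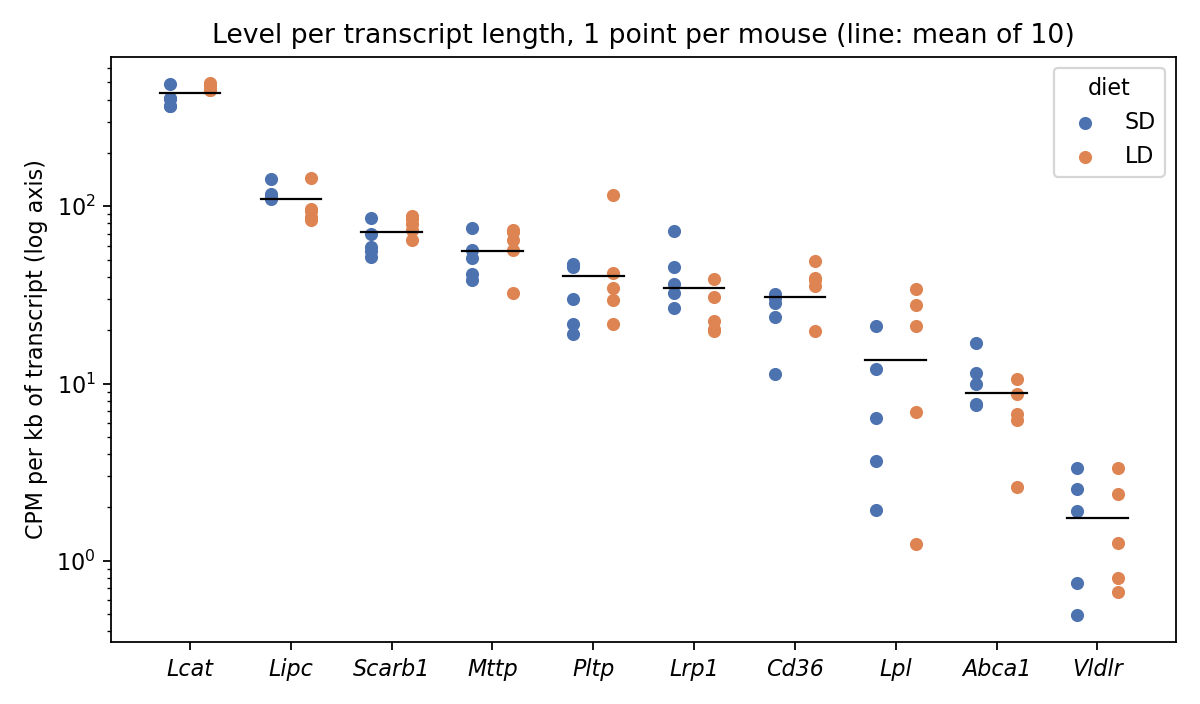
Level of each gene as CPM per kb of transcript on a log axis, 1 point per mouse, with a line at the mean of the 10 mice. Lcat and Lipc have the highest means, and Abca1 and Vldlr have the lowest means.

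The spread between mice on the same diet differed widely among the 10 genes. The within-diet SD on the log2 scale was 1.69 for Lpl, larger than that of 98.8% of genes tested, and 1.08 for Vldlr, larger than that of 95.1%. Pltp (0.78), Abca1 (0.65), Cd36 (0.56), Lrp1 (0.49) and Mttp (0.44) followed. Lipc (0.25) and Scarb1 (0.24) varied less, and Lcat, at 0.12, had a smaller SD than all but 0.388% of genes. The lipases Lpl and Lipc, which belong to one protein family, thus lay far apart in spread, as did the receptors Vldlr and Scarb1.

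The same mice were high or low for several genes. How often each mouse was highest or lowest over all genes tested was not counted, so the counts below cannot be called particular to the 10 genes. The mean log2(CPM + 0.1) over all genes tested ran from 3.39 (LD_405) to 3.86 (SD_403), with 3.83 in SD_502, 3.75 in SD_501 and 3.67 in SD_646. On the standard diet SD_502 was the highest mouse for 5 of the 10 genes (Mttp, Lcat, Scarb1, Abca1 and Lrp1) and the lowest for Lpl. SD_501 was lowest for 5 genes (Mttp, Lcat, Pltp, Abca1 and Lrp1) and highest for Lpl and Vldlr, and SD_646 was lowest for the other 4. On the Longevity diet LD_405 was lowest for 6 genes (Mttp, Lpl, Abca1, Lrp1, Vldlr and Cd36) and highest for Pltp and Lipc. That library also had the lowest median level over all genes in the table, 3.39 CPM, beside 3.99 to 5.49 CPM in the others, and the part of this in the values of the 10 genes was not tested.

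**Figure D4:**
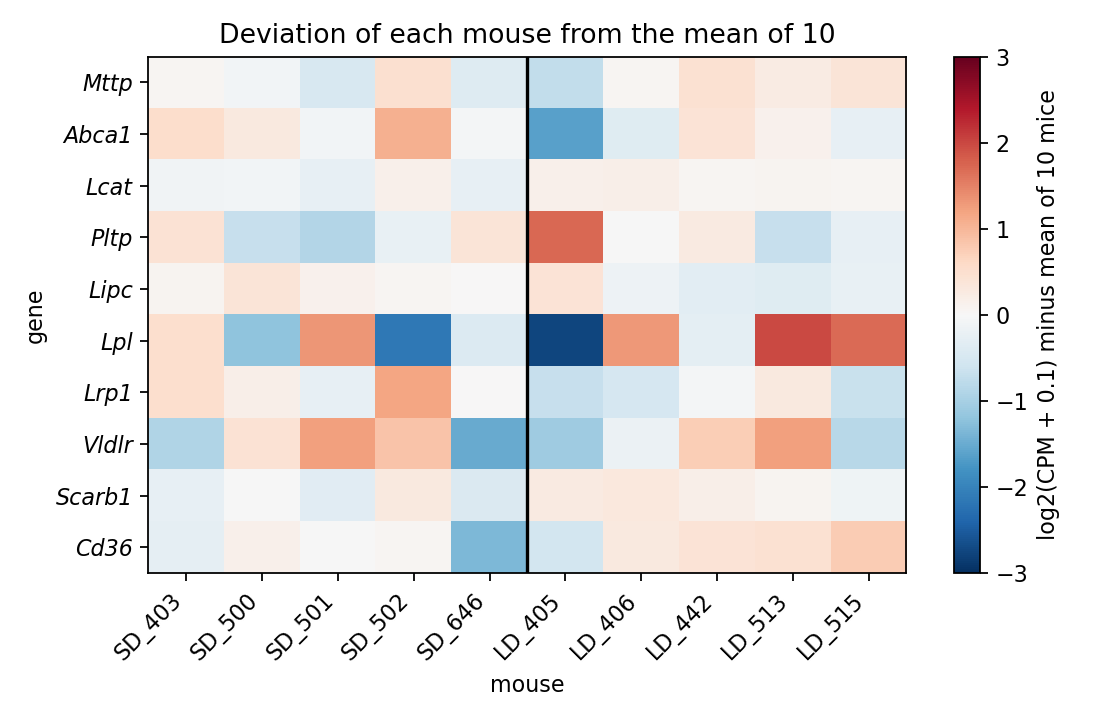
Deviation of each mouse from the mean of all 10 mice, on the log2(CPM + 0.1) scale, for the 10 genes (rows) and 10 mice (columns, standard diet left of the line). LD_405 is low for Abca1 and Lpl and high for Pltp, SD_502 is high for Abca1 and Lrp1 and low for Lpl, and the Lcat row is close to 0 throughout.

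Liver RNA holds that of several cell types, and fewer cells of a type cannot be told apart from less RNA per cell in bulk samples. All 12 hepatocyte markers were measured and 1 of them, Cps1, fell, with 6 of the 12 at an unadjusted p under 0.05 beside 17.5% of all genes tested. The log2 difference lay above 0 for 4 of the 12 and below 0 for 8, with a median of -0.11. Over the 13157 genes tested it lay above 0 for 5205 and below 0 for 7952, also with a median of -0.11. Alb, the albumin gene, was among the 4 above 0. It averaged 79126 CPM on the standard diet and 124794 CPM on the Longevity diet, without passing the test. Of 14 Kupffer cell and macrophage markers 0 passed the test (2 at an unadjusted p under 0.05), and their summed level was 533 to 886 CPM on the standard diet and 277 to 916 CPM on the Longevity diet. Of 14 endothelial markers 0 passed (10 at an unadjusted p under 0.05), with sums of 325 to 477 CPM on the standard diet and 144 to 308 CPM on the Longevity diet, and the log2 difference lay below 0 for all 14. Among 14 stellate cell and fibroblast markers 1 fell, Pdgfrb (10 at an unadjusted p under 0.05, 13 below 0), with sums of 612 to 886 CPM on the standard diet and 382 to 652 CPM on the Longevity diet. Of 10 neutrophil and monocyte markers 6 were tested and 1, S100a8, fell (4 at an unadjusted p under 0.05, all 6 below 0), the sums being 8.97 to 90.1 CPM on the standard diet and 4.60 to 15.0 CPM on the Longevity diet. The median log2 difference was -0.62, -0.70, -0.81 and -1.27 in these 4 lists in turn. Lrp1, which macrophages and fibroblasts also make, had -0.65. The 10 genes ran from -0.70 (Abca1) to 0.77 (Lpl), with 6 above 0 and 4 below 0. The part of the cell mixture in the value of Lrp1 or of the other genes was not tested.

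Lrp1 and the endothelial sum were both highest in SD_502 (477 CPM for the sum), and both were low in LD_406 (180.2 CPM) and LD_515 (144 CPM). Other mice did not follow that order: LD_405, with the lowest Lrp1 of the 10 mice, had the second highest endothelial sum of its diet (292 CPM), and LD_513, with the highest Lrp1 of its diet, had 243 CPM. SD_502 had the lowest sums of Kupffer cell markers (533 CPM) and stellate cell markers (612 CPM) on its diet. Lpl, which macrophages make as well, stood differently beside the Kupffer cell sum on each diet, a difference that was not tested. On the standard diet the 2 mice with the highest Lpl, SD_501 and SD_403, had the highest Kupffer cell sums (865 and 886 CPM), and SD_502 was lowest in both. On the Longevity diet the 3 mice with the highest Lpl (LD_513, LD_515 and LD_406) had the 3 lowest sums, 277 to 383 CPM beside 835 and 916 CPM. The part of macrophages in the level of Lpl was not tested. Skeletal muscle and fat also make Lpl. The measured muscle markers Acta1, Myh1 and Mylpf summed to at most 1.03 CPM in any mouse, and the fat marker Cfd was at most 0.778 CPM. The fat markers Adipoq, Plin1, Lep and Retn and the muscle markers Actn3, Ckm, Mb, Myh4 and Tnnt3 are not among the 19414 genes measured. The 4 fat cell markers that passed the filter were Fabp4, Car3, Adrb3 and Pparg, some of which liver cells also make. They stood above 3 CPM in every mouse and 1 of them, Adrb3, fell.

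**Figure D5:**
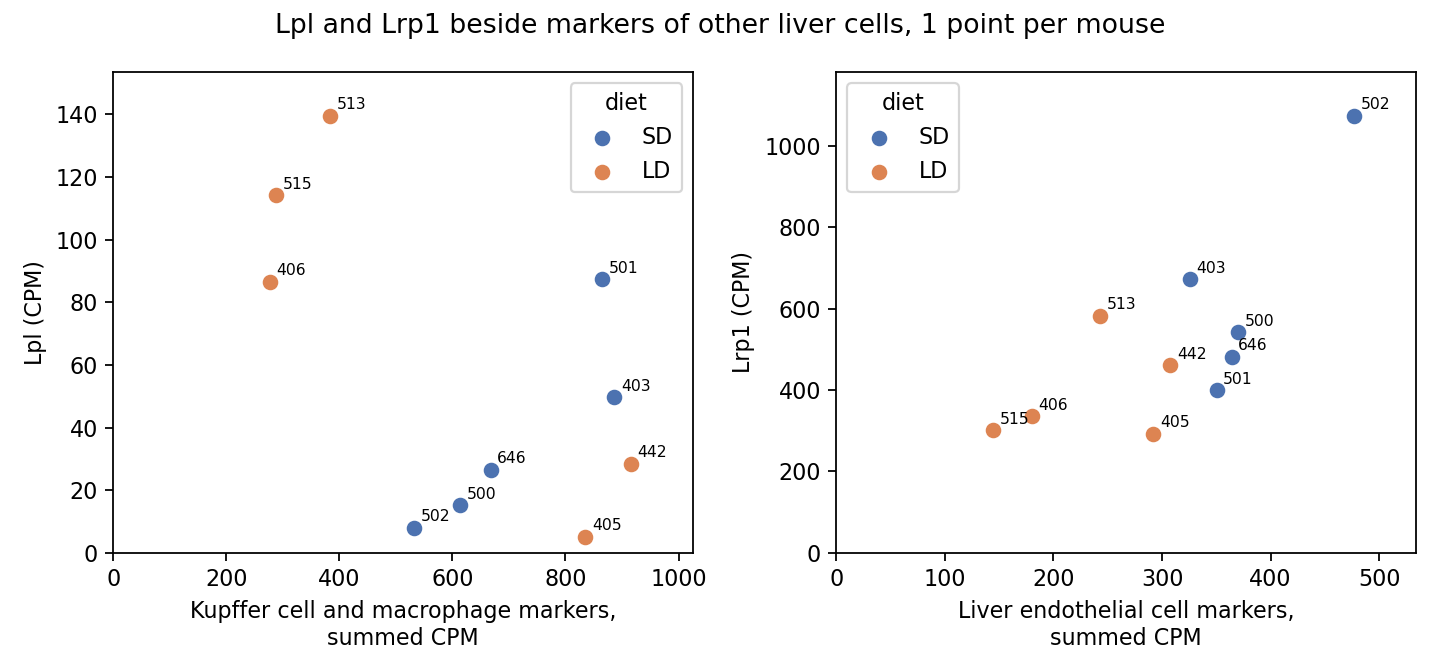
Lpl against the summed CPM of Kupffer cell and macrophage markers (left) and Lrp1 against the summed CPM of endothelial markers (right), 1 point per mouse labelled with its number, all axes in CPM from 0. On the Longevity diet LD_513, LD_515 and LD_406 combine high Lpl with low Kupffer cell sums, while on the standard diet SD_501 and SD_403 are highest and SD_502 lowest in both; SD_502 is highest in Lrp1 and the endothelial sum, and LD_405 is lowest in Lrp1 without being lowest in that sum.

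Other genes of the pathway were counted in 6 lists. Over all genes tested the median was -0.11, 1.89% were called and 17.5% had an unadjusted p under 0.05. For VLDL assembly and secretion partners 0 of 26 tested genes rose and 0 fell, with 5 at an unadjusted p under 0.05 and a median log2 difference of 0.11. The smallest p values belonged to Cidec, a lipid droplet protein, at 0.483 ± 0.597 and 2.87 ± 2.41 CPM (log2 difference 2.72, adjusted p = 0.119), the lipase gene Ces1d at 531 ± 133 and 813 ± 152 CPM (log2 difference 0.63, adjusted p = 0.126), and the fat storage gene Fitm2 at 39.0 ± 22.1 and 59.7 ± 4.39 CPM (log2 difference 0.77, adjusted p = 0.191). Cidec was near the floor, at 0 CPM in SD_403 and SD_501. The size of its log2 difference therefore depends on the CPM added before the log, being 1.26 with 1 and 4.11 with 0.01.

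Among genes of lipase maturation, anchoring and inhibition 1 of 20 tested genes rose and 0 fell, with 7 at an unadjusted p under 0.05 and a median log2 difference of 0.24. The gene that rose was Pnpla2, which encodes an intracellular triglyceride lipase and does not act on plasma lipoproteins, at 62.1 ± 11.1 and 147 ± 34.0 CPM on SD and LD (log2 difference 1.23, adjusted p = 0.00839). Its call was lost with the leading digit of the mouse number as a covariate (log2 difference 1.096, adjusted p = 0.0512) and without LD_406 and LD_515 (log2 difference 1.25, adjusted p = 0.106). Angptl4, an inhibitor of LPL, was at 135 ± 35.1 and 222 ± 50.5 CPM (log2 difference 0.73, adjusted p = 0.112). Its values on the diets did not overlap, the nearest being 172.7 CPM in SD_502 and 175.7 CPM in LD_513. Apoc3, another inhibitor of triglyceride clearance, was at 2796 ± 837 and 1598 ± 635 CPM (log2 difference -0.82, adjusted p = 0.146), and passed without LD_405 and with library weights.

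For receptors and their adaptors or regulators 0 of 25 tested genes rose and 0 fell, with 4 at an unadjusted p under 0.05 and a median log2 difference of -0.02. The smallest p values were those of the scavenger receptor Stab2 at 40.4 ± 17.7 and 18.6 ± 6.93 CPM (log2 difference -1.12, adjusted p = 0.102), the sorting receptor Sorl1 at 6.75 ± 2.49 and 3.00 ± 2.32 CPM (log2 difference -1.37, adjusted p = 0.124) and the macrophage scavenger receptor Msr1 at 15.5 ± 4.08 and 8.90 ± 6.69 CPM (log2 difference -1.05, adjusted p = 0.203). Stab2 also stands among the endothelial markers. Sorl1 passed without LD_513 (log2 difference -1.73, adjusted p = 0.0377).

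Of the partners in HDL formation, cholesterol efflux and HDL uptake 0 of 26 tested genes rose and 0 fell, with 7 at an unadjusted p under 0.05 and a median log2 difference of 0.15. The smallest p values were those of 3 canalicular transporters that move sterol or phospholipid into bile. Abcg8 was at 126 ± 34.0 and 198 ± 18.1 CPM (log2 difference 0.68, adjusted p = 0.0851). Its values on the diets barely missed overlapping, at 183.6 CPM in SD_502 and 184.1 CPM in LD_515, and 5.50% of all genes tested had no overlap. The dimer partner of Abcg8, Abcg5, was at 86.4 ± 20.1 and 138 ± 20.8 CPM (log2 difference 0.69, adjusted p = 0.0904), and the phospholipid exporter Abcb4 at 206 ± 55.4 and 336 ± 65.1 CPM (log2 difference 0.72, adjusted p = 0.0959). Abcg5 and Abcb4 passed the threshold with median-of-ratios and TMM scaling, all 3 passed with library weights (adjusted p = 0.00744 to 0.0118) and without SD_502 (adjusted p = 0.0243 to 0.0446), and Abcg5 also passed without LD_405.

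In fatty acid uptake and binding 0 of 17 tested genes rose and 0 fell, with 3 at an unadjusted p under 0.05 and a median log2 difference of 0.18. Fabp1, the fatty acid binding protein of hepatocytes, was at 1330.1 ± 323 and 3239 ± 1831 CPM (log2 difference 1.15, adjusted p = 0.0736), the bile acid and fatty acid CoA ligase gene Slc27a5 at 755 ± 224 and 497 ± 86.8 CPM (log2 difference -0.57, adjusted p = 0.192), and the caveolar gene Cavin1 at 11.3 ± 2.58 and 7.89 ± 1.89 CPM (log2 difference -0.52, adjusted p = 0.277). Among apolipoproteins 0 of 15 tested genes rose and 0 fell, with 4 at an unadjusted p under 0.05 and a median log2 difference of -0.02. Apon was at 559 ± 149.6 and 325 ± 36.3 CPM (log2 difference -0.75, adjusted p = 0.0765) without overlap between the diets, and Apoa4, a component of triglyceride-rich particles and HDL, at 524 ± 352 and 929 ± 427 CPM (log2 difference 1.00, adjusted p = 0.252), with Apoc3 as given above. Named for their role and not by rule, Apob, the structural protein of VLDL, was at 2659 ± 898 and 2601 ± 628 CPM (-0.007 on the log2 scale, adjusted p = 0.991), and Apoe, the remnant ligand of these receptors, at 27309 ± 5092 and 30406 ± 12153 CPM (log2 difference 0.10, adjusted p = 0.863). The sign of both turned under several settings, the 3 scalings among them for Apob. Both were chosen after values of the data had been seen.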

How the data were processed

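Poly-A selected RNA of 10 livers was sequenced, and the submitters' processing notes name STAR, Partek and mm39 without versions; how reads were counted, on which annotation and with which filter is not given in the sources used here. The deposited values are CPM per mouse, to which the authors added 0.0001, subtracted here. The spacing of low values within a library gave its depth. In LD_515 alone odd multiples of the spacing were rare (a share of 0.018, beside 0.50 to 0.53 in the other libraries). Its spacing was taken as a fraction of 1 read and doubled, and depth was not compared without this step. Between 84.5% and 88.0% of values below 100 reads were within 0.1 read of a whole number, so no count model was used.

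Genes averaging 1 CPM or more were tested as log2(CPM + 0.1) in limma 3.58.1 under R 4.3.3, using robust empirical Bayes with a trend, with diet as the only term, two-sided, Benjamini-Hochberg adjusted, threshold 0.05. The method was also run on simulated data. The outcome is not reported here, so that run gives no measure of the size of difference that could be found. Depth was compared by an exact permutation test over 252 assignments. Ends of genes are 1 below the printed stop, an offset that held for 15 of 15 mitochondrial genes compared with GENCODE M21. Lengths are those of the longest coding transcript in GENCODE M21. Alternatives were pseudocounts of 0.01 and 1, filters, 3 scalings (TMM in an unweighted form computed from the CPM values), weights, plain empirical Bayes, the first digit of each mouse's number, of unknown meaning, and leaving out each mouse; leaving out LD_406 and LD_515 was added after seeing the data.

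The 10 genes and all lists were chosen with earlier results of these data known. Named beyond the 10 genes are those past the threshold in each pathway list, and otherwise the smallest p values up to 3, with exceptions stated. Single values of some listed genes are not reported here.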

Additional observations from a re-analysis of the deposited data

Results flagged for a closer look

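In 20 groups of 5 mice (10 genes on 2 diets), the gap between the highest or lowest mouse and its neighbour was set against the range of the group. The critical ratio was 0.71, which chance passes in about 1 of 20 groups of normally distributed values. Ratios were taken on CPM and not on the log2 scale of the tests, where they can differ. The critical ratio was passed in 3 groups, each time by the highest mouse. Lipc in SD_500 was at 273 CPM beside 211 to 226 CPM in the other mice of its diet (ratio 0.759). Lipc in LD_405 was at 278 CPM beside 161 to 186 CPM (ratio 0.783), and Pltp in LD_405 was at 258 CPM beside 48.1 to 94.1 CPM (ratio 0.781). No cause was tested.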

How the results depend on the processing

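None of the 10 genes passed the threshold in any of the 21 alternatives, and the sign of 9 genes was kept in all of them. The log2 difference of Vldlr turned to 0.0699 with median-of-ratios scaling, 0.0948 with TMM scaling, 0.12 with quantile normalization, 0.15 with library weights and 0.28 without LD_406 and LD_515, and ran from -0.42 to 0.26 when 1 mouse was left out. Apob turned from -0.007 to 0.105 with median-of-ratios, 0.130 with TMM, 0.065 with quantile normalization, 0.109 with weights and 0.051 without LD_406 and LD_515, and ran from -0.113 to 0.164 with 1 mouse left out. Apoe turned to -0.107 with weights and ran from -0.106 to 0.199 with 1 mouse left out. The 3 scalings moved the median over all genes by 0.110 to 0.134. The 249 genes changed, 87 higher and 162 lower, became 805 with library weights, 98 with the leading digit as covariate, 17 without LD_406 and LD_515, and 87 (without LD_406) to 380 (without LD_405) with 1 mouse left out, with 96 without SD_403, 106 without LD_515, 107 without SD_500, 148 without SD_501 and 163 without SD_646. The split was 154 higher and 134 lower with median-of-ratios, 170 and 126 with TMM, and 151 and 148 with quantile normalization. Genes without overlap numbered 798 to 1100 and members without overlap 0 to 2 with 1 mouse left out (1100 without LD_405 and without LD_442, 2 without LD_405, 1 without SD_502), from 723 and 0, a count that fewer mice raise by construction.

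In the pathway lists the counts changed as follows. VLDL partners had 1 changed gene with library weights and 0 to 1 with a mouse left out (1 without SD_502). Lipase partners had 3 with weights, 0 with the digit, 0 without LD_406 and LD_515, and 1 to 2 with a mouse left out (2 without LD_405). Receptors had 0 to 1 with a mouse left out (1 without LD_442 or LD_513). HDL partners had 2 with median-of-ratios, 2 with TMM, 3 with weights and 0 to 3 with a mouse left out (3 without SD_502, 1 without LD_405). Apolipoproteins had 2 with weights and 0 to 1 with a mouse left out (1 without LD_405). The cause was not tested. No paired analysis was possible because the diets share no mouse numbers. With 5 mice a diet the precision is limited by the spread between their libraries. In that spread, differences between mice cannot be told apart from those of library preparation. Each value rests on about 165 reads or more.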
